A study of Saccharomyces cerevisiae with 159 samples.

Results

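The mitochondrial ribosomal protein genes of budding yeast were taken as a set list of 52 nuclear genes with names in MRPL, MRPS or MRP that encode proteins of the mitochondrial ribosome, out of 7130 rows in the expression table. The list leaves out MRPS12 and MRP10, which were counted with the further mitoribosome proteins. Of these, 37 encode proteins of the large subunit and 15 encode proteins of the small subunit. They lie on 12 chromosomes, with 29 on the plus strand, and their coding sequences run from 213 bases in MRPL39 to 1185 bases in MRP4. The 137 cytosolic ribosomal protein genes served as the contrast.

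The mitochondrial ribosome translates the few mRNAs made inside the organelle, nearly all of which encode subunits of the respiratory chain and the ATP synthase. Its rRNAs come from mitochondrial DNA, whereas nearly all of its proteins are nuclear-encoded, made in the cytosol and imported. In yeast many of the mRNAs for these proteins are bound by Puf3, a Pumilio-family RNA-binding protein that recognises a short motif downstream of the coding sequence, while cytosolic ribosomal protein genes are controlled by TORC1 and protein kinase A (PKA) through transcription factors such as Sfp1.

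The study followed mRNA in 8 experiments on W303 strains, with 8 to 47 libraries each. In the arrest experiments, WT cells and temperature-sensitive cdc28-13, cdc20-1 or cdc15-2 cells were moved from 25 °C to 37 °C in YEPD for up to 9 h, which stops the mutants in G1, in metaphase and in late anaphase, respectively. WT was MATa with ade2-1, leu2-3, ura3, trp1-1, the his3-11,15 allele, can1-100, GAL and psi+. The cdc28-13::URA3 strain was MATa in the same background, cdc20-1 was labelled MATalpha with ura3, trp1, leu2, his3, ade2 and can1 markers, and cdc15-2 was MATa with leu2-3, ura3, trp1-1 and ade1 markers. In the Bcy1 experiment these strains, as parents, were compared at 37 °C in YEPD with acetic acid with AID-BCY1 versions of each, in which Bcy1, the inhibitory subunit of PKA, carries an auxin-inducible degron under the RFA1 promoter (pRFA1:9Myc-AID*-BCY1) and the F-box protein osTIR is made from pTEF1. All 4 AID-BCY1 strains were labelled MATa with the markers given for WT, so the cdc20-1 pair also differed in labelled mating type and the cdc15-2 pair in its ade and his3 markers. Auxin (500 µM) was added after 2 h and, by the paper, again after 4 h. The parents lacked the tagged BCY1 and osTIR, so the degron, osTIR, the loss of Bcy1 and, in those pairs, the other differences of genotype cannot be told apart. The remaining experiments were growth to saturation and rapamycin treatment of a WT haploid and of a strain labelled MATa/alpha diploid at 30 °C, alpha factor against DMSO in MATa bar1::HisG cells at 30 °C, and cdc28-13 ADE2 auxotrophs against cdc28-13 prototrophs (ADE2, URA3, TRP1, HIS3, 4xSTRE-GFP:LEU2) after alpha-factor synchronization.

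The levels below are log2(TPM + 1), where TPM (transcripts per 1000000) is each gene's length-corrected share of the nuclear mRNA after rDNA open reading frames were left out, so that the scale gives a share of mRNA and not molecules per cell, and fewer cells and less RNA per cell cannot be told apart. Rows named as spikes held signal in the cdc28-13, growth and rapamycin experiments and were not used for scaling. A difference of 1 on the log2 scale is about a 2-fold difference. A gene was called where limma's moderated test gave a Benjamini-Hochberg adjusted p under 0.05 over all genes kept. The files hold no read counts, so the depth of each library is unknown. By the paper, the cdc28-13, growth and rapamycin experiments used total RNA and the others enriched mRNA. The Bcy1 and alpha factor libraries are nevertheless labelled total RNA. Nuclear mRNA outside the rDNA was 1.79% to 5.09% of TPM in the former and at least 66.1% in the others. Whether this lowered the number of calls was not tested. Nothing in the labels says that replicates were separate cultures, and the paper describes its volume and ribosome measurements of growth and rapamycin as done once. The p-values thus measure the spread between these libraries, which may be technical. In the cdc28-13, growth and rapamycin experiments 34 of the 52 genes were listed at 0 in 1 or more libraries, with up to 13 of them in a single library, and in the other experiments none was. Mating-type genes went against the labels of 3 strains in the Bcy1 experiment. WT, WT AID-BCY1 and cdc15-2 AID-BCY1, all labelled MATa, had low BAR1, a gene expressed in MATa cells, with library medians of 2.56, 2.95 and 2.74 against 6.10 in cdc28-13. The cdc20-1 pair differed in BAR1 as labelled, both members of the WT pair and of the cdc28-13 pair were alike, and the libraries labelled diploid looked haploid. Results for WT and cdc28-13 therefore stand beside those for the other pairs throughout.

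All 52 genes had the Puf3 core TGTANATA, in which N is any base, on the coding strand within 250 bases after the stop codon. The same core was found for 908 of 5986 coding genes (15.17%) and for 8 of 137 cytosolic ribosomal protein genes (5.84%). Counted from the stop codon, the nearest core lay 8 to 139 bases downstream, with a median of 50.5 bases, and 12 genes had more than 1 core. The sequences of 12 genes, chosen by role, are shown from the RefSeq reference of the sacCer3 (R64) build, 5′ to 3′ on the coding strand, with the core in capitals. The first 7 belong to the large subunit (MRP20 and MRPL4 sit at the tunnel exit, and MRP7, MRPL16, MRPL32, MRPL36 and MRPL50 have bacterial counterparts) and the last 5 to the small subunit.
MRP7, chrXIV:621243-621272, minus strand: ttaagaatgccTGTAAATAttactattttg
MRPL4, chrXII:1015467-1015496, plus strand: accctctctccTGTAAATAtatatatatat
MRPL16, chrII:146900-146929, plus strand: ccatgtatacaTGTATATAactattgaaaa
MRPL32, chrIII:119206-119235, plus strand: aaacttaagccTGTATATAgaaacttaatt
MRPL36, chrII:483850-483879, minus strand: ataaacagcctTGTATATAccgcaacatat
MRPL50, chrXIV:669719-669748, minus strand: gcgtacaatctTGTATATAggcaacatcgc
MRP20, chrIV:1278499-1278528, plus strand: cccctcacactTGTATATAcggagcaaact
MRPS5, chrII:722314-722343, plus strand: aatactaTGTACATAcacacgcaccattat
MRPS28, chrIV:1147197-1147226, plus strand: gtagaaaagctTGTAAATAagaaaccgtca
MRP1, chrIV:1170183-1170212, plus strand: ttggtagtctcTGTAAATAtataaagtcaa
MRP4, chrVIII:100429-100458, plus strand: taacctaaactTGTACATAtgcccatatat
MRP51, chrXVI:327697-327726, plus strand: attcagagttcTGTAAATAaataaagaaaa

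Other genes of mitochondrial translation shared the core. It was present for 23 of 24 further mitoribosome proteins, for 19 of 24 mitochondrial translation factors and for all 12 mitochondrial tRNA synthetases listed, but for 6 of 34 nuclear genes of the respiratory chain and ATP synthase (17.6%). The hexamer AATTTT, known as the rapid growth element, was searched on both strands from 250 bases before to 50 bases after the start of each gene. It was found for 23 of the 52 genes (44.2%), for 76 of 137 cytosolic ribosomal protein genes (55.5%) and for 51.8% of all coding genes. A match of this kind is a description of the letters and not a test of binding.

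The genes were of moderate abundance. By the median over all libraries on the log2(TPM + 1) scale, MRPS5 (5.32), MRPL25 (5.71) and MRPL35 (5.81) were lowest, and MRPS9 (7.02), MRPS18 (7.11) and MRP51 (7.12) were highest. Together the 52 genes made up 2348 to 9709 TPM, and the 137 cytosolic ribosomal protein genes 22080 to 400667 TPM. The ratio of the latter sum to the former ran from 2.78 to 141 across the libraries. Identity limits some single values, because MRPL19 overlaps YNL184C on the same strand, and MRPL51 and MRP4 overlap the antisense genes YPR099C and YHL005C, so that their reads may not be separable from those of the overlapping gene.

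The Bcy1 experiment asked how expression changed once PKA lost its inhibitor. At 2 h, when auxin was due and WT had a single library, whose spread the fit took from the other groups, limma called no mitochondrial ribosomal protein gene in any of the 4 backgrounds, and 0, 1, 6 and 0 of them had an unadjusted p under 0.05 in the WT, cdc28-13, cdc20-1 and cdc15-2 pairs. Of all 6071 genes, 0.0494%, 0.148%, 2.6% and 0.955% were called at that time. The level of BCY1 mRNA at 2 h was 7.42 and 7.06 in WT AID-BCY1 against 7.19 in WT. In cdc28-13 AID-BCY1 it was already lower than in the parent, at 6.70 and 6.84 against 7.93 and 7.79. The same held in the cdc20-1 pair (7.22 and 7.56 against 8.26 and 8.32) and the cdc15-2 pair (7.18 and 7.18 against 8.22 and 8.17). At 4 h, all 52 genes were lower in WT AID-BCY1 than in WT, where 13.2% of all genes tested were called lower and 2.06% higher. The median of the 52 differences was -1.13, against -0.06 for all genes. At the same time 9 of the 137 cytosolic ribosomal protein genes were called higher, with a median of 0.25, and none was called lower.

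**Figure D1:**
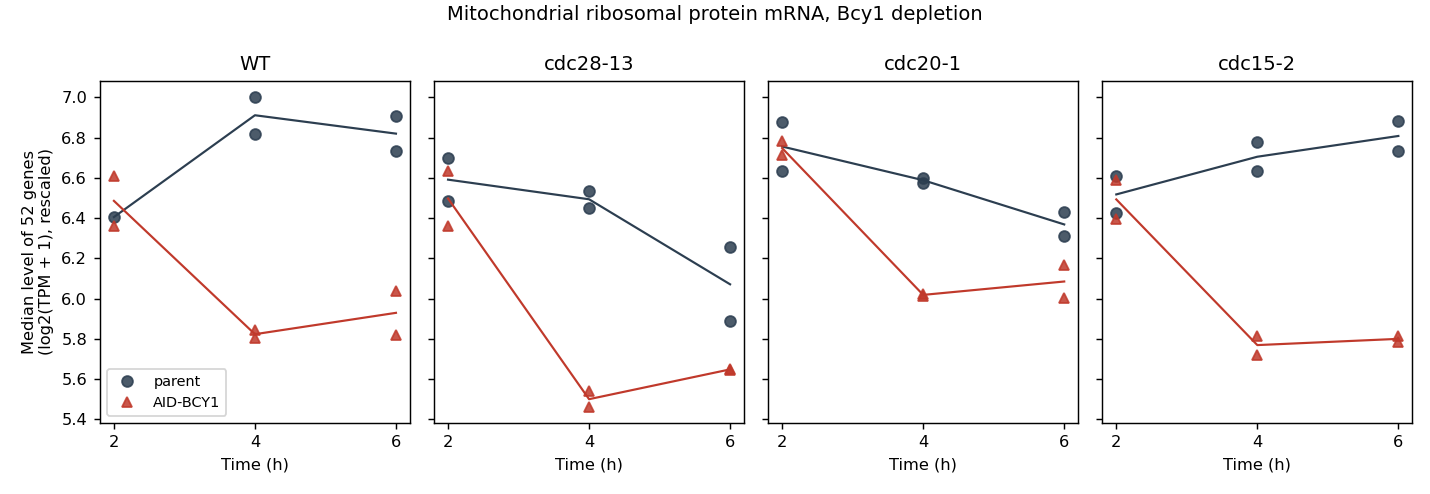
Median log2(TPM + 1) of the 52 mitochondrial ribosomal protein genes in each library of the Bcy1 experiment against hours at 37 °C, with circles for parents, triangles for AID-BCY1 strains and lines through group means. At 4 h the AID-BCY1 libraries lie below their parents in every background (in WT 5.80 and 5.84 against 7.0 and 6.82), and at 6 h the gap is narrowest in cdc20-1 (6.00 and 6.17 against 6.43 and 6.31).

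Among large-subunit genes, MRPL23, the counterpart of a bacterial large-subunit protein, differed most in this comparison. Its level was 7.26 and 7.16 in the WT libraries and 5.67 and 5.88 in the WT AID-BCY1 libraries at 4 h, a difference of -1.43. At 2 h the same gene had been at 7.05 in the single WT library and at 6.71 and 6.73 in WT AID-BCY1, so most of the separation appeared after auxin was added. MRPL50 stood at 7.33 and 7.02 in WT and at 5.86 and 6.08 in WT AID-BCY1 (difference -1.21, SE 0.17, limma adjusted p = 3.8e-06). MRPL16 was at 6.76 and 6.55 in WT and at 5.55 and 5.64 in WT AID-BCY1 (difference -1.06, SE 0.17, limma adjusted p = 4.5e-05). The 4 libraries of each gene did not overlap between strains. The smallest difference of the 52 was that of MRP7, which encodes the counterpart of bacterial L27. It read 7.31 and 7.25 in WT and 6.51 and 6.53 in WT AID-BCY1, a difference of -0.76 (SE 0.13, limma adjusted p = 6.6e-05). The tunnel-exit genes MRP20 (-0.88, SE 0.22) and MRPL4 (-0.90, SE 0.18) also fell, as did MRPL32 (-0.87, SE 0.19) and MRPL36 (-1.03, SE 0.19). All differences lay between -1.43 and -0.76.

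The small subunit moved by a like amount. MRPS5, the lowest of all 52 genes in abundance, was at 5.88 and 6.09 in WT and at 4.50 and 4.69 in WT AID-BCY1 at 4 h (difference -1.39, SE 0.22, limma adjusted p = 2.6e-05). MRP51, the most abundant, which is needed for the translation of mitochondrially encoded cytochrome oxidase subunits, was at 7.84 and 7.73 against 6.93 and 6.77 (difference -0.94, SE 0.16, limma adjusted p = 9.1e-05). Genes at both ends of the abundance range were thus lower, with no overlap between strains. MRP1, a protein with no bacterial counterpart, went from 7.42 and 7.37 to 6.30 and 6.22 (difference -1.13, SE 0.14, limma adjusted p = 1e-06), and MRPS28 and MRP4 differed by -1.06 (SE 0.20) and -1.13 (SE 0.17). The sum over all 52 genes was 7103 and 6311 TPM in WT and 3136 and 3116 TPM in WT AID-BCY1.

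The fall was seen in the arrested strains too. In cdc28-13 AID-BCY1 at 4 h, 49 of the 52 were called lower than in the cdc28-13 parent (19.0% of all genes), as were 37 in the cdc20-1 pair (19.2%) and 50 in the cdc15-2 pair (18.0%). None was called higher in any pair, where 4.2%, 10.3% and 6.33% of all genes were. The medians were -1.05, -0.65 and -0.98, against -0.16, -0.08 and -0.05 for all genes. The sign was negative for all 52 genes in all 4 backgrounds, and 36 genes were called lower in all 4. The share of all genes that meets these overlaps is not given here. Both AID-BCY1 libraries lay below both parent libraries for 52, 52, 51 and 52 genes in the WT, cdc28-13, cdc20-1 and cdc15-2 pairs, as they did for 30.2%, 40.2%, 38.5% and 35.1% of all genes. In the same comparisons 73, 125 and 84 of the 137 cytosolic ribosomal protein genes were higher in the cdc28-13, cdc20-1 and cdc15-2 pairs. The WT and cdc28-13 pairs, in which both strains had the same mating-type pattern, called 52 and 49 genes.

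Which gene differed most varied with the background. In the cdc28-13 pair at 4 h it was MRPL31, a mitochondria-specific large-subunit protein, at 6.92 and 6.98 in the parent and 5.11 and 5.94 in cdc28-13 AID-BCY1 (difference -1.42). In the cdc15-2 pair it was MRPS5, at 5.54 and 5.82 in the parent and 4.41 and 4.13 in cdc15-2 AID-BCY1 (difference -1.41). These library values did not overlap either. At 4 h MRP20 was called only in the WT pair, though other genes differed less in the cdc20-1 pair (-0.12) and the cdc15-2 pair (-0.45). It fell in WT, but its differences of -0.52 in the cdc28-13 pair, -0.13 in the cdc20-1 pair and -0.49 in the cdc15-2 pair had limma adjusted p-values of 0.084, 0.72 and 0.1. For cdc20-1 the MRP20 values were 6.73 and 6.58 in the parent and 6.51 and 6.54 in the AID-BCY1 strain at 4 h. The cdc20-1 count was 23 without cdc20-1 AID-BCY1 replicate 2.

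**Figure D2:**
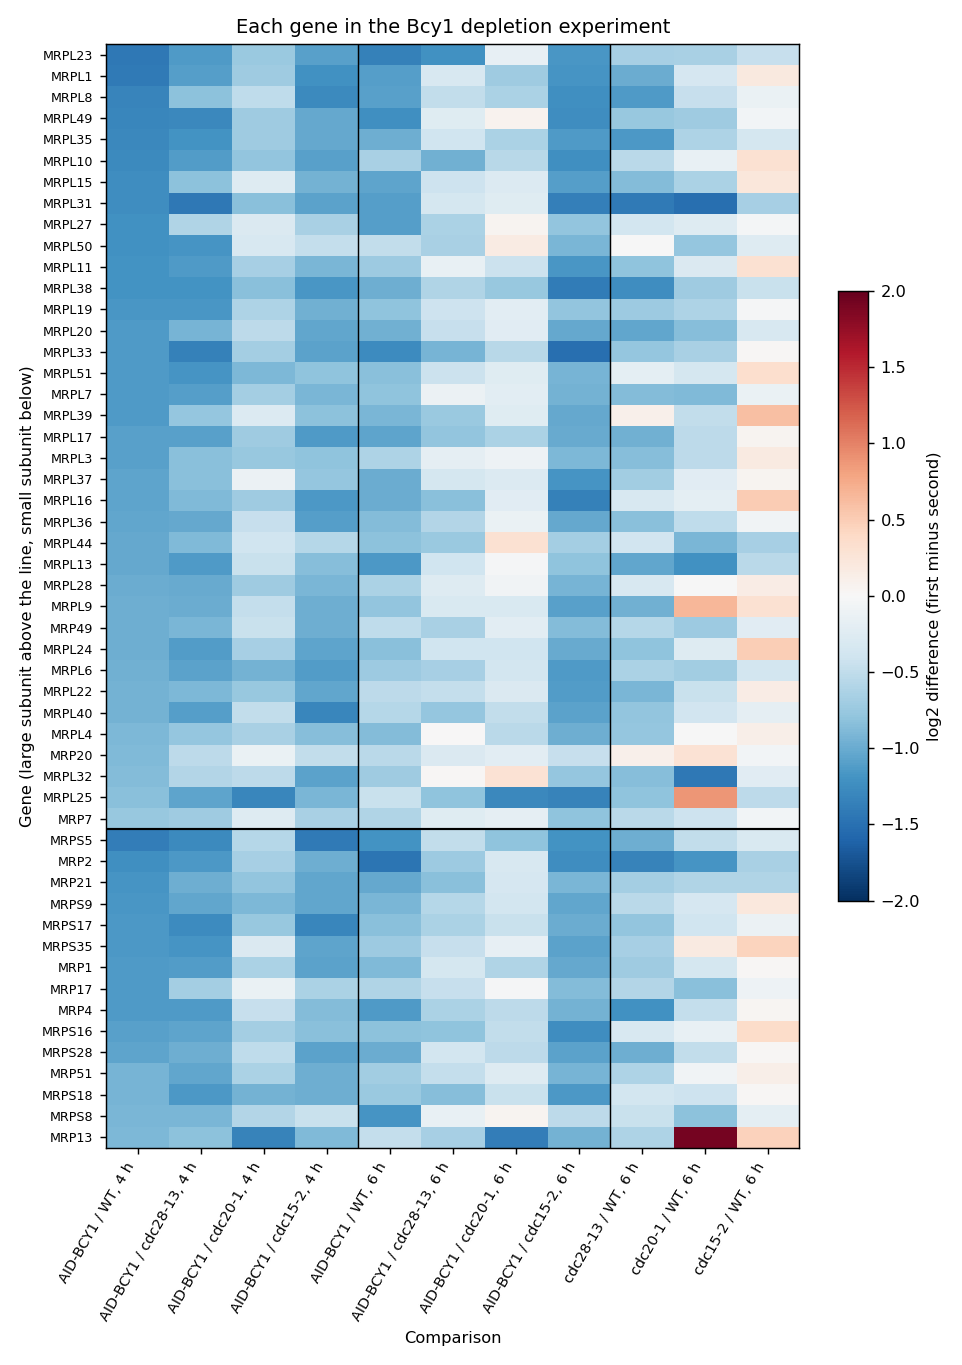
Heat map of the log2 difference for each of the 52 genes (rows, large subunit above the line and small subunit below) in 11 comparisons of the Bcy1 experiment (columns), with blue where the strain named first was lower and red where it was higher. The 4 columns at 4 h are blue in every row, the cdc20-1 and cdc28-13 columns at 6 h are paler (medians -0.28 and -0.47), and MRP13 is the reddest cell (1.91) in cdc20-1 against WT.

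By 6 h the difference had become uneven. In WT, 46 of the 52 genes were lower (6.95% of all genes) with a median of -0.85, and in the cdc15-2 pair 50 were lower (21.8%) with a median of -1.03. In the cdc28-13 pair 24 were lower (15.4%) with a median of -0.47, and in the cdc20-1 pair 13 (13.1%) with a median of -0.28. The medians of all genes in the same order were 0.15, -0.13, -0.05 and -0.10. None of the 52 was called higher, where 7.03%, 6.65%, 7.63% and 7.3% of all genes were. The 5 genes lower in all 4 backgrounds at 6 h were the large-subunit genes MRPL10, MRPL17 and MRPL38 and the small-subunit genes MRP4 and MRPS18, and 51 were lower in at least 1. For these overlaps too the share of all genes is not given. Both smaller counts rested in part on single libraries: the cdc28-13 count was 6 without cdc28-13 replicate 2, and the cdc20-1 count was 5 without either cdc20-1 replicate 1 or cdc20-1 AID-BCY1 replicate 1.

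MRPL38, the counterpart of bacterial L14, showed the shared part of the pattern at 6 h. In WT it was at 7.57 and 7.69 and in WT AID-BCY1 at 6.47 and 6.84. In cdc28-13 it was at 6.14 and 6.63 against 5.80 and 5.76, and in cdc20-1 at 7.03 and 6.80 against 6.22 and 6.09. In cdc15-2, where its difference was -1.4 (SE 0.14, limma adjusted p = 7.5e-09), the values were 7.18 and 7.20 against 5.77 and 5.82. In each background both AID-BCY1 libraries lay below both parent libraries. MRP4, the counterpart of bacterial S2, was likewise at 6.92 and 7.0 against 6.15 and 5.49 in WT, at 5.62 and 5.86 against 5.12 and 5.10 in cdc28-13, at 6.43 and 6.53 against 5.74 and 6.17 in cdc20-1, and at 6.94 and 7.06 against 6.01 and 6.08 in cdc15-2. Here too no AID-BCY1 library reached its parents, although the WT AID-BCY1 libraries lay well apart.

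The largest falls at 6 h in WT were those of MRP2 (-1.47, SE 0.22), MRPL23 (-1.35, SE 0.19), MRPL33 (-1.26, SE 0.26) and MRPL49 (-1.23, SE 0.15). In cdc28-13 they were MRPL23 (-1.21, SE 0.19), MRPL10 (-0.97, SE 0.19), MRPL33 (-0.92, SE 0.26) and MRPS18 (-0.86, SE 0.16). In cdc15-2 they were MRPL33 (-1.51, SE 0.26), MRPL38, MRPL31 (-1.37, SE 0.23) and MRPL16 (-1.36, SE 0.17). MRP20 was called in none of the 4 backgrounds at 6 h.

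Whether the effect of AID-BCY1 differed between backgrounds was tested directly at 6 h, as the difference of differences. Relative to WT, 5 genes had a higher, that is less negative, effect in cdc28-13 (1.55% of all genes) and 8 in cdc20-1 (1.48%), and none a lower one (4.5% and 2.98%). In cdc15-2 none of the 52 was called by limma, with 5 at an unadjusted p under 0.05, where 10.8% of all genes were called. MRPL49 was called in both cdc28-13 (0.98, SE 0.21, limma adjusted p = 0.0068) and cdc20-1 (1.31, SE 0.21, limma adjusted p = 0.00038). Its level at 6 h was 7.16 and 7.22 in WT and 5.87 and 6.05 in WT AID-BCY1, but 6.51 and 6.45 in cdc20-1 and 6.54 and 6.57 in cdc20-1 AID-BCY1. In cdc28-13 it was 6.20 and 6.66 in the parent and 6.07 and 6.30 in the AID-BCY1 strain. The parents in both arrests thus lay below the WT parent, and their AID-BCY1 libraries lay above those of WT. MRPL13 and MRPS8 were also called in both backgrounds, MRPL1 and MRPL4 in cdc28-13 only, and MRPL23, MRPL27, MRPL32, MRPL44 and MRP2 in cdc20-1 only. The 2 sets of differences share the WT and WT AID-BCY1 libraries.

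Other genes of mitochondrial gene expression were followed in the same comparison, WT at 4 h. Of 24 further mitoribosome proteins 23 were lower, with a median of -1.09 (RSM27 -1.52, MRPS12 -1.41). Of 12 mitochondrial tRNA synthetases 10 were lower (MSK1 -1.25, MSY1 -1.24), and of 24 translation factors 11 were (CBP6, an assembly factor for cytochrome b, -1.54, and the elongation factor gene TUF1 -1.38). Of 10 mitoribosome assembly and rRNA factors 3 were lower (MBA1 -1.44, OXA1 -0.99), and of 7 genes for mtDNA maintenance and expression 1 was, the mtDNA-packaging gene ABF2 (-0.72). None of the genes on these lists was called higher at that time. Among nuclear genes of the respiratory chain and ATP synthase 30 of 34 were lower (median -1.01, ATP15 -1.68, COX7 -1.51).

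At 6 h the respiratory chain and the mitochondrial ribosome had like medians in WT, and whether they differed in the arrests was not tested. Respiratory genes were lower in 31, 33, 30 and 34 of 34 cases in the WT, cdc28-13, cdc20-1 and cdc15-2 pairs, with medians of -0.86, -1.54, -1.03 and -1.68, while the medians of the 52 mitochondrial ribosomal protein genes were -0.85, -0.47, -0.28 and -1.03. The further mitoribosome proteins were lower in 18, 10, 5 and 23 of 24 cases. Among regulators, HAP4, the activating subunit of the respiratory transcription complex, fell by 1.44 in the cdc15-2 pair at 6 h (SE 0.27, limma adjusted p = 0.00011), and it also fell in cdc20-1 (-0.90) and cdc28-13 (-0.73), whereas in WT its difference of -0.58 had a limma adjusted p of 0.14. PUF3 was not called in any background at 6 h (-0.24, -0.42, -0.25 and -0.50), and its difference in WT at 4 h was -0.72 (SE 0.25, limma adjusted p = 0.052). SFP1 was called in none of these comparisons.

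Centring each library on its median gene left these directions unchanged, with medians of -0.98, -0.79, -0.51 and -0.80 at 4 h and of -0.98, -0.36, -0.13 and -0.75 at 6 h in WT, cdc28-13, cdc20-1 and cdc15-2. It did alter the split of all genes. In WT at 4 h, 125 genes were higher and 802 lower on the main scale, and 505 and 636 after centring. In cdc15-2 at 6 h the split was 404 and 1325 on the main scale and 1209 and 898 after centring.

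The same libraries gave the effect of each arrest in auxin medium without the degron. These comparisons share their WT libraries with each other and with the comparison of WT AID-BCY1 with WT. After 6 h, 41 of the 52 mitochondrial ribosomal protein genes were called lower than WT in cdc28-13 (17.9% of all genes) and none was called higher (27.0%), with a median of -0.77 against 0.14 for all genes. In cdc20-1, 29 were lower (14.7%) and 3 higher (29.7%), with a median of -0.48 against 0.21. In cdc15-2, 6 were lower (7.89%) and 2 higher (30.1%), with a median of -0.03 against 0.30. Cytosolic ribosomal protein genes were lower in 98, 124 and 85 of 137 cases. The mating-type pattern differed between WT and the cdc28-13 and cdc15-2 parents, and its part in these differences was not tested.

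At 2 h WT had 1 library, so that calls at that time take its spread from the other groups and cannot be set against the later counts. In cdc28-13 limma called none of the 52 genes at 2 h (median 0.20, with 9 at an unadjusted p under 0.05 and 4.55% of all genes called), 17 were lower at 4 h (6.85% of all genes, median -0.45), and 41 at 6 h. The library medians in cdc28-13 were 6.48 and 6.70 at 2 h, 6.45 and 6.54 at 4 h, and 5.89 and 6.25 at 6 h. For cdc20-1, 7 genes were higher at 2 h (10.7%), and 17 were lower and 3 higher at 4 h (12.2% and 22.4%). For cdc15-2 limma called none at 2 h (5 at an unadjusted p under 0.05, 9.55% of all genes called), and MRPL31, MRPL44 and MRPL50 were lower at 4 h (2.95%).

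MRPL31, a mitochondria-specific protein of the large subunit, was among the 4 largest falls in each of the 3 arrests. At 6 h it was at 7.54 and 7.71 in WT, 5.74 and 6.69 in cdc28-13, 6.07 and 6.17 in cdc20-1, and 6.63 and 7.29 in cdc15-2. All arrested libraries lay below both WT libraries. The differences were -1.41 (SE 0.23, limma adjusted p = 1.5e-05), -1.50 (SE 0.23, limma adjusted p = 5.9e-06) and -0.66 (SE 0.23, limma adjusted p = 0.024). MRP2, the counterpart of a bacterial small-subunit protein, behaved alike, at 7.12 and 7.20 in WT against 5.56 and 6.10 in cdc28-13, 6.22 and 5.75 in cdc20-1 and 6.44 and 6.58 in cdc15-2. Its differences were -1.33, -1.18 and -0.65, all called. MRPL13, MRPL38 and MRP21 were the other genes lower in all 3 arrests, an overlap for which the share of all genes is not given.

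Some members were not called lower, and others were called higher. In cdc28-13, MRP20 (0.11), MRPL50 (-0.01) and MRPL16 (-0.32) were not called, where the median of all genes was 0.14. In cdc15-2, MRPL16 rose from 6.67 and 6.76 in WT to 7.13 and 7.32 (difference 0.51, SE 0.17, limma adjusted p = 0.02) and MRPS35 rose by 0.45 (SE 0.17, limma adjusted p = 0.039). The 2 rises in cdc15-2 were lost when each library was centred on its median gene, where 26 of the 52 genes were lower, none was higher and the median was -0.42. The all-gene split moved at the same time from 1829 higher and 479 lower to 1010 and 1394. The main cdc15-2 count of 8 genes was also unstable to single libraries, at 1 without cdc15-2 replicate 1, 4 without cdc15-2 replicate 2 and 3 without WT replicate 1, while the cdc28-13 count was 26 without cdc28-13 replicate 1, and the cdc20-1 count 18 and 21 without cdc20-1 replicate 2 and without WT replicate 2.

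The nuclear genes of the respiratory chain moved the other way. At 6 h 28, 31 and 31 of 34 were higher in cdc28-13, cdc20-1 and cdc15-2 than in WT (medians 0.99, 0.98 and 1.05, with COX7 at 2.27 in cdc28-13, COX13 at 2.30 in cdc20-1 and CYT1 at 2.34 in cdc15-2). Of the 24 further mitoribosome proteins, 12 and 11 were lower in cdc28-13 and cdc20-1, and 4 were higher and 1 lower in cdc15-2. Of 12 tRNA synthetases 6 and 7 were lower in cdc28-13 and cdc20-1, and 3 were higher in cdc15-2. HAP4 rose in cdc28-13 (1.10, SE 0.27, limma adjusted p = 0.0015) and cdc15-2 (0.89, limma adjusted p = 0.0097), and its difference in cdc20-1 was 0.42 (limma adjusted p = 0.2). PUF3 was not called in any of them (0.05, -0.14 and 0.38).

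The 3 genes that were higher in cdc20-1 than in WT at 6 h, MRP13, MRPL25 and MRPL9, all lie on chromosome VII, as does MRPS35, and no other of the 52 genes does. MRP13, a mitochondria-specific small-subunit protein (YGR084C, chrVII:647123-648142), was at 5.83 and 6.58 in WT and at 8.26 and 7.98 in cdc20-1 (difference 1.91, SE 0.23, limma adjusted p = 1.2e-07). MRPL25 (YGR076C, chrVII:637104-637577) was at 5.89 and 6.37 in WT and at 7.11 and 6.90 in cdc20-1 (difference 0.88, SE 0.23). MRPL9 (YGR220C, chrVII:936074-936883) was at 6.86 and 6.96 against 7.57 and 7.58 (difference 0.66, SE 0.15), and MRPS35 (YGR165W, chrVII:829116-830153), at 6.43 and 6.90 against 6.86 and 6.84, was not called and its libraries overlapped. The genes of chromosome VII as a whole were also higher in this strain. Over 505 genes of that chromosome with a mean log2 level of at least 3 the median difference was 1.05, and over 5005 genes of the other chromosomes it was 0.11. The median of the 4 mitochondrial ribosomal protein genes on chromosome VII was 0.77 and that of the other 48 was -0.49.

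**Figure D3:**
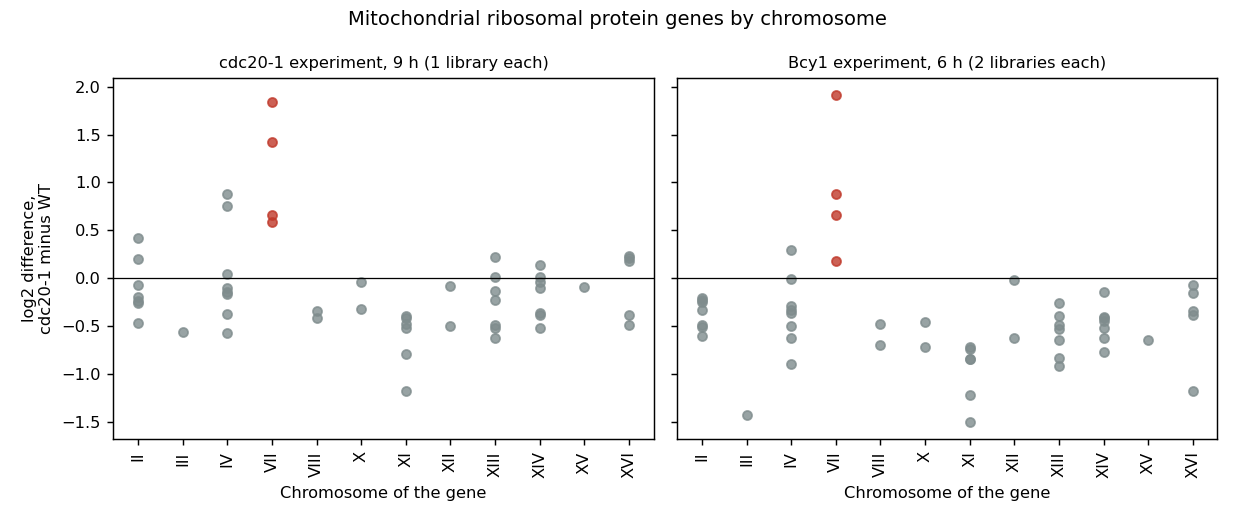
Difference in log2(TPM + 1) between cdc20-1 and WT for each of the 52 genes (points) by chromosome, in the cdc20-1 experiment at 9 h (left, 1 library a strain) and in the Bcy1 experiment at 6 h (right, 2 libraries a strain). The 4 genes on chromosome VII (red) lie above 0 in both, with MRP13 at 1.84 and 1.91.

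The same was seen in the separate cdc20-1 experiment, with 1 library for each strain and time and so no replicate check. Over 555 genes of chromosome VII the median was 1.02 at 2 h and 1.25 at 9 h, against 0.17 and 0.29 over 5443 others. MRP13 was at 8.12, 7.75, 7.87 and 8.10 in cdc20-1 at 2, 4, 6 and 9 h and at 6.17, 6.17, 6.36 and 6.26 in WT. Its excess was thus present at the first time point. The cdc20-1 AID-BCY1 libraries carried the same shift relative to WT AID-BCY1, with medians of 0.79 on chromosome VII and -0.14 elsewhere at 6 h, and little of it relative to the cdc20-1 parent (-0.06 and -0.11). The copy number of the chromosome was not measured.

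The 2 largest differences among the 52 genes between cdc20-1 AID-BCY1 and cdc20-1 at 6 h were those of MRP13 and MRPL25. MRP13 was at 6.53 and 6.94 in cdc20-1 AID-BCY1, against 8.26 and 7.98 in the parent (difference -1.39, SE 0.23, limma adjusted p = 4.5e-05). MRPL25 was at 5.81 and 5.61 against 7.11 and 6.90 (difference -1.29, SE 0.23, limma adjusted p = 0.00016). The differences of MRPL9 and MRPS35, on the same chromosome, were -0.30 and -0.16. At 2 h, with auxin not yet added, MRP13 already stood at 7.48 and 7.37 in cdc20-1 AID-BCY1 and at 8.39 and 7.95 in cdc20-1 (difference -0.75), and MRPL25 at 6.54 and 7.09 against 7.44 and 7.66 (-0.74).

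The cdc28-13 arrest was followed for 9 h in a separate experiment with 3 libraries a strain at 2, 8 and 9 h. Here the levels of the 52 genes were lower late in the arrest, but few single genes passed the test. At 2 h limma called none, and none had an unadjusted p under 0.05 (median 0.40, with 1.15% of all 6260 genes called). At 4 h none was called (11.5% of all genes) and at 6 h MRPL7, MRPL28, MRPL44 and MRP4 were lower (6.47%), but these times had 1 cdc28-13 library each. At 8 h 10 genes were lower (21.7% of all genes) and 3 higher (17.5%), with a median of -1.01 against -0.20 for all genes. At 9 h 2 were lower (19.1%) and 3 higher (17.1%), with a median of -0.70 against -0.12. These shares of the 52 are near or below those of all genes. Cytosolic ribosomal protein genes were lower in 127 and 126 of 137 cases, with medians of -2.85 and -2.87.

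The library medians of the 52 genes at 8 h were 5.85, 5.31 and 5.69 in cdc28-13 and 6.14, 6.29 and 6.18 in WT. At 9 h they were 5.73, 5.75 and 6.00 against 6.29, 6.09 and 6.28. All cdc28-13 values lay below all WT values at both times. Each cdc28-13 library at these times had more of the 52 genes listed at 0 than any WT library, which lowers its median. How much of the separation this makes up was not tested. The counts depended on the scale and on single libraries. When rDNA open reading frames were kept in the total, 33 genes were called at 8 h and 23 at 9 h, with medians of -1.62 and -1.25, and on that scale the median of all genes was -0.94 and -0.74 and the split of all genes 606 higher and 2758 lower at 8 h and 655 and 2376 at 9 h, in place of 1094 and 1361 and of 1069 and 1197. Without WT replicate 1 or replicate 3 the 8 h count was 7 or 8, and without WT replicate 1 or replicate 2 the 9 h count was 3.

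**Figure D4:**
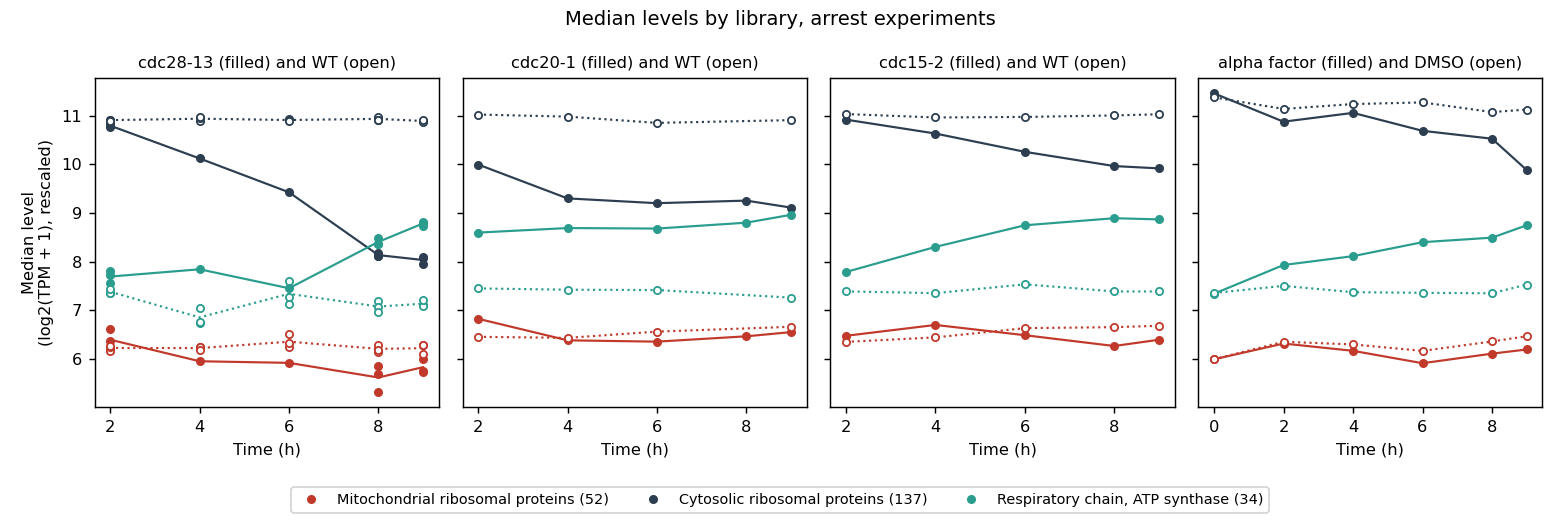
Median log2(TPM + 1) by library against time for the 52 mitochondrial ribosomal protein genes (red), 137 cytosolic ribosomal protein genes (dark blue) and 34 respiratory chain and ATP synthase genes (green) in the cdc28-13, cdc20-1, cdc15-2 and alpha factor experiments, with arrested cells filled and controls open. Cytosolic ribosomal protein genes fall away from WT in cdc28-13 (median difference -2.87 at 9 h) and respiratory genes lie above it (1.68), while the mitochondrial ribosomal protein genes lie slightly below their controls late in each arrest.

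The genes called in cdc28-13 moved in both directions. MRPS17, the counterpart of bacterial S17, was at 7.13, 6.93 and 7.70 in cdc28-13 and 6.04, 5.99 and 5.67 in WT at 8 h (difference 1.35, SE 0.29, limma adjusted p = 0.0011), and at 8.12, 7.64 and 8.15 against 6.72, 6.02 and 6.33 at 9 h (difference 1.61, SE 0.29, limma adjusted p = 0.00021). MRP51 was at 7.74, 7.73 and 8.28 against 6.66, 6.67 and 7.09 at 8 h (difference 1.11, SE 0.28, limma adjusted p = 0.0038). For both genes every cdc28-13 library lay above every WT library at 8 and 9 h. With rDNA open reading frames kept in the total, the 8 h differences shrank to 0.37 for MRPS17 and 0.14 for MRP51. The third gene, MRPL28, was at 6.46, 6.34 and 6.85 against 4.02, 6.05 and 6.14 (difference 1.15, SE 0.43, limma adjusted p = 0.041), and on the deposited values its difference was -0.04. At 4 and 6 h the single cdc28-13 libraries lay below all WT libraries for MRPS17 (5.27 and 5.48) and MRP51 (6.42 and 6.48). In the Bcy1 experiment at 6 h their differences between cdc28-13 and WT were -0.79 and -0.62. In cdc28-13 auxotrophs at 2, 4, 6 and 8 h MRPS17 was at 6.69, 6.34, 5.95 and 6.02. MRP51 was at 7.21, 7.21, 6.58 and 6.55 there. Why the experiments went different ways was not tested.

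Among the genes lower at 8 h, MRP4 was at 4.98, 6.16 and 4.79 in cdc28-13 and at 6.63, 6.13 and 6.40 in WT (difference -1.08, SE 0.30, limma adjusted p = 0.007), so that 1 cdc28-13 library lay within the WT range. MRP2 was listed at 0 in all 3 cdc28-13 libraries at 8 h, and was at 6.67, 6.12 and 7.01 in WT. MRP17 was at 5.09 in 1 cdc28-13 library and listed at 0 in the others, against 7.45, 5.92 and 6.99. MRPL20 likewise was at 4.47 in 1 library and listed at 0 in the others, against 5.54, 7.09 and 6.70 in WT. The change from 2 h to 9 h differed between the strains for 1 gene, MRPS17 (2.10, SE 0.42, limma adjusted p = 0.00088), where 10.2% of all genes had a higher change in cdc28-13. At 9 h MRP2 was listed at 0 in 2 cdc28-13 libraries and was at 7.28 in the other. MRPS9, which fell at 9 h, was at 6.60, 5.12 and 4.00 in cdc28-13 and at 7.41, 6.67 and 6.79 in WT (difference -1.71, SE 0.51, limma adjusted p = 0.012).

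The cdc20-1, cdc15-2 and alpha factor experiments and the comparison of auxotrophs with prototrophs had 1 library for each strain or treatment and time, so their differences carry no test. At the last time the median of the 52 genes was -0.18 in cdc20-1 at 9 h, -0.33 in cdc15-2 at 9 h, -0.28 with alpha factor at 9 h and -0.23 in cdc28-13 auxotrophs against prototrophs at 8 h. The medians of all genes were 0.41, 0.49, 0.34 and 0.17, those of the cytosolic ribosomal protein genes -1.77, -0.999, -1.12 and -0.62, and those of the respiratory genes 1.73, 1.62, 1.25 and 0.81. Differences of at least 2-fold were few. In cdc20-1 2 genes were that much higher and 1 lower, where 30.6% and 6.48% of all genes were, and in cdc15-2 none was higher and 3 were lower, where 31.8% and 6.27% were. With alpha factor and in the auxotrophs none of the 52 differed by 2-fold, where 24.4% and 11.8% of all genes were that much higher and 5.1% and 2.27% lower.

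The time courses of single members differed. In the cdc15-2 experiment MRPL38 was at 6.77, 6.82, 6.17, 5.97 and 5.80 in cdc15-2 at 2, 4, 6, 8 and 9 h, and at 6.21, 6.45, 6.59, 6.99 and 6.98 in WT. It was thus above WT early and below it late, and at 9 h the difference was -1.18. MRPL16 was above WT at every time, at 6.57, 7.20, 6.98, 7.09 and 7.12 against 6.14, 6.37, 6.39, 6.44 and 6.51. In the cdc20-1 experiment MRPL31 was at 7.55, 6.79, 6.62 and 6.27 in cdc20-1 at 2, 4, 6 and 9 h and at 7.14, 7.33, 7.37 and 7.44 in WT, a difference of -1.17 at 9 h.

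With alpha factor 42 of the 52 genes had a negative difference at 9 h, and 22 had one at 0 h. The median of all genes at 9 h was 0.34, and the share of all genes with a negative difference is not given. MRPL7 was at 5.83, 5.78, 5.63, 5.08, 5.28 and 5.54 at 0, 2, 4, 6, 8 and 9 h, and at 5.67, 6.16, 6.13, 5.94, 6.27 and 6.34 in DMSO. The gene was close to DMSO before treatment and below it from 2 h on. The tunnel-exit gene MRP20 did the opposite, at 5.80, 6.89, 6.53, 6.10, 6.40 and 7.04 with alpha factor against 5.90, 6.22, 5.72, 5.64, 6.15 and 6.37 in DMSO. MRP20 was also among the 3 highest differences in the cdc20-1 (0.88) and cdc15-2 (0.58) experiments at 9 h. In cdc28-13 auxotrophs MRPL28 was at 6.54, 6.20, 5.98 and 5.98 at 2, 4, 6 and 8 h and in prototrophs at 6.45, 6.81, 6.96 and 6.76.

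Growth to saturation gave the highest library medians of these genes in the series. In the haploid the library medians of the 52 genes were 5.79 and 5.36 at 2 h, 5.84 in the single library at 4 h, 5.99 and 5.95 at 6 h, 6.36 and 6.52 at 8 h, 7.27 and 7.22 at 10 h and 5.85 and 5.94 at 24 h. In the diploid-labelled strain they were 5.39 and 5.68 at 2 h, 6.04 and 6.04 at 4 h, 6.26 and 6.10 at 6 h, 6.50 and 6.60 at 8 h, 7.47 and 7.65 at 10 h and 5.77 and 5.88 at 24 h. The highest medians were those at 10 h in both strains, and by 24 h they lay between 5.77 and 5.94.

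Relative to 2 h, none of the 52 genes was called at 4, 6 or 8 h by limma in either strain. The median differences were 0.26, 0.65 and 1.13 in the haploid and 0.44, 0.60 and 0.98 in the diploid-labelled strain, with 5 to 12 genes at an unadjusted p under 0.05 in each comparison. Of all genes, 0.394%, 0.427% and 0.625% were called in the haploid and 0.0657%, 0.0986% and 0.526% in the diploid-labelled strain. At 10 h 11 genes were higher in the haploid (6.46% of all 6084 genes) and 20 in the diploid-labelled strain (13.6%), and none was lower (4.8% and 15.1%). The medians were 1.58 and 1.73, against 0.15 and 0.16 for all genes, and both 10 h libraries lay above both 2 h libraries for 43 and 44 genes, as they did for 29.9% and 34.1% of all genes. Each 2 h library had more of the 52 genes listed at 0 than any 10 h library of its strain, which enlarges these differences. How much of the rise this makes up was not tested. Cytosolic ribosomal protein genes were lower in 58 and 126 of 137 cases, with medians of -1.15 and -4.07.

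**Figure D5:**
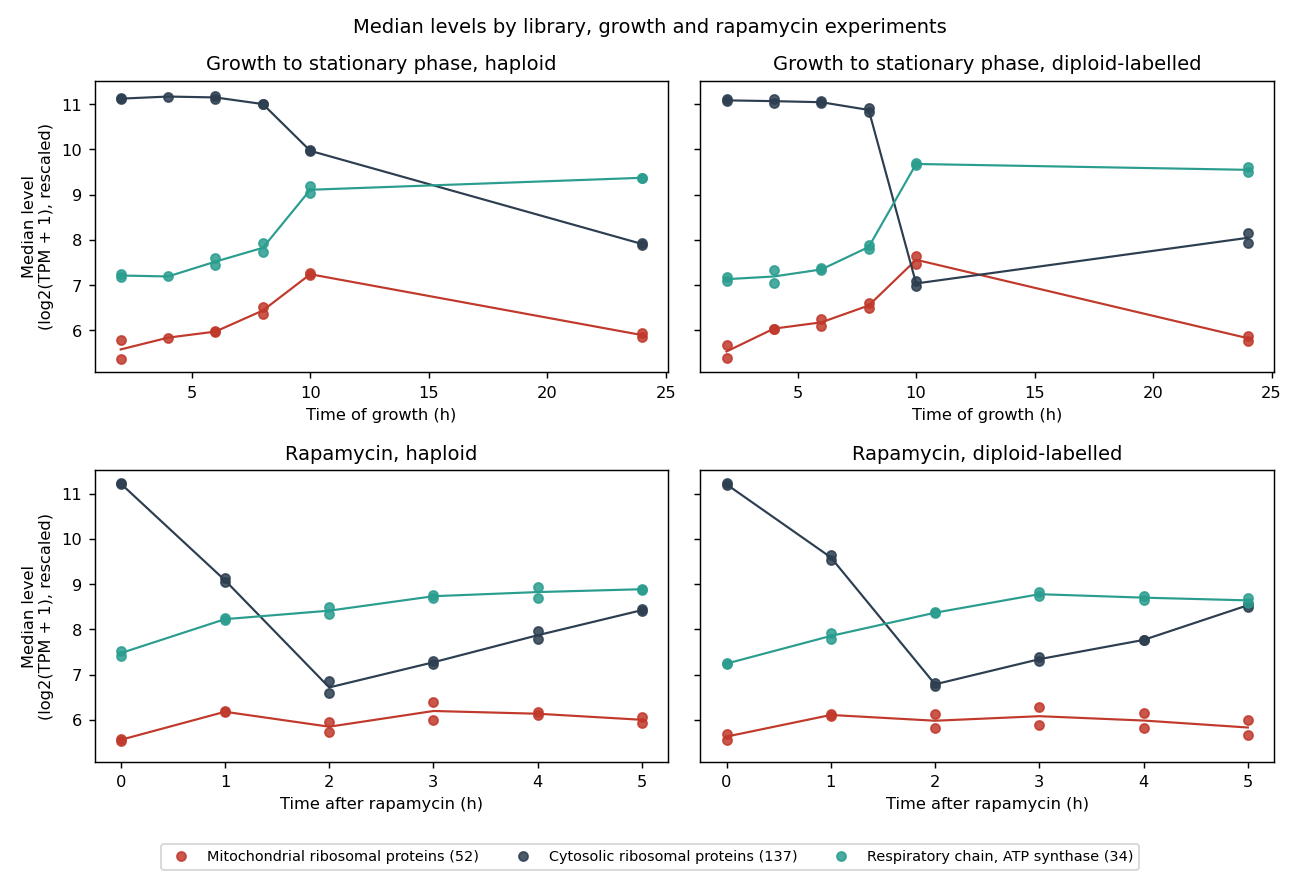
Median log2(TPM + 1) by library against time for the 52 mitochondrial ribosomal protein genes (red), the 137 cytosolic ribosomal protein genes (dark blue) and 34 respiratory chain and ATP synthase genes (green), in growth to saturation (top) and rapamycin (bottom), for the haploid (left) and diploid-labelled strain (right). In growth the red points peak at 10 h (7.27 and 7.22 in the haploid, 7.47 and 7.65 in the diploid-labelled strain), while the cytosolic genes fall, and in rapamycin the red points stay near 6.

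MRP1 was at 5.41 and 5.75 at 2 h and at 7.97 and 8.33 at 10 h in the haploid (difference 2.57, SE 0.50, limma adjusted p = 0.0038). By 24 h its libraries were far apart, at 4.82 and 6.73. MRPL8, the counterpart of bacterial L17, went from 5.85 and 3.95 to 7.38 and 7.67 in the haploid (difference 2.62, SE 0.58, limma adjusted p = 0.008) and was at 6.83 and 5.42 at 2 h and 7.94 and 7.71 at 10 h in the diploid-labelled strain. The 10 h libraries lay above the 2 h libraries in both strains. MRPS28 went from 3.66 and 5.60 to 6.69 and 7.61 in the haploid (difference 2.52, SE 0.54, limma adjusted p = 0.0072), and MRPL50 from 5.71 and 4.76 to 7.22 and 8.25 (difference 2.51, SE 0.76, limma adjusted p = 0.048). MRPL19, which shares its strand and part of its sequence with YNL184C, went from 4.54 and 6.11 to 7.60 and 8.30 (difference 2.63, SE 0.59).

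In the diploid-labelled strain MRP51 went from 5.87 and 6.07 at 2 h to 8.09 and 8.63 at 10 h (difference 2.39, SE 0.36, limma adjusted p = 0.00015). In the haploid the same gene was at 7.08 and 6.31 and then at 7.23 and 7.77, and it was not called (difference 0.80, limma adjusted p = 0.2). MRPL16 went from 3.94 and 4.90 to 6.53 and 7.60 in the diploid-labelled strain (difference 2.64, SE 0.58, limma adjusted p = 0.0031). Unlike most of the 52, MRPL16 was still as high at 24 h, at 6.89 and 7.03. MRPL36 (2.10, SE 0.56), MRPL4 (2.35, SE 0.80) and MRP7 (1.39, SE 0.44) also rose in this strain at 10 h. MRPS5 was at 4.49 and listed at 0 at 2 h and was at 8.00 and 7.70 at 10 h.

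The genes MRPL3, MRPL8, MRPL17, MRPL35 and MRPS9 were called higher at 10 h in both strains, and 48 of the 52 differences were positive in both. The share of all genes for which this held in both strains is not given. A direct test of the difference between strains at 10 h called 1 gene, where 6.26% of all genes were called lower. MRPL20 was at 4.22 and listed at 0 at 2 h in the haploid and at 7.56 and 7.21 at 10 h, but at 6.15 and 6.71 and then 7.12 and 4.74 in the diploid-labelled strain (difference of differences -5.77, SE 1.55, limma adjusted p = 0.035). A library listed at 0 enters that value. The counts at 10 h depended on single libraries: in the haploid they were 6, 3 and 6 without 10 h replicate 1, 10 h replicate 2 and 2 h replicate 2, and in the diploid-labelled strain 5 without 10 h replicate 1 and 12 without 10 h replicate 2 or either 2 h library.

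From 10 to 24 h the levels came down. Relative to 10 h, 12 genes were lower at 24 h in the haploid (7.87% of all genes) and 13 in the diploid-labelled strain (4.57%), with medians of -1.57 and -1.67. Relative to 2 h, MRPL20 and MRPL24 were higher in the haploid at 24 h (12.4%) and none was lower (10.3%), while MRPL16 and MRPL39 were higher and MRPL49 lower in the diploid-labelled strain (11.2% and 9.5%). The medians against 2 h were 0.20 and 0.29, and both turned negative after centring each library on its median gene (-0.23 and -0.14), as did the first with rDNA open reading frames kept in the total (-0.15), so that no direction is given for 24 h. The haploid count was 1 without 24 h replicate 2, 5 without 24 h replicate 1 and 4 without 2 h replicate 2, and the diploid-labelled count was 5 without 2 h replicate 1. MRPL24 was listed at 0 and at 4.78 in the haploid at 2 h and was at 5.14 and 7.42 at 24 h. MRPL39 was listed at 0 in both diploid-labelled libraries at 2 h and was at 7.87 and 7.43 at 24 h. MRPL49 was at 5.46 and 6.43 at 2 h, and at 24 h at 4.91 and listed at 0.

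Respiratory chain genes rose along with the mitochondrial ribosomal protein genes at 10 h, in 22 and 26 of 34 cases in the haploid and the diploid-labelled strain (medians 1.89 and 2.58). At 24 h, when the 52 genes had come down, 24 and 25 of the 34 respiratory genes were higher than at 2 h (medians 2.08 and 2.30).

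In rapamycin, which inhibits TORC1, most cytosolic ribosomal protein genes were lower than at 0 h and few mitochondrial ones were called. This experiment had no untreated time course, so the drug and the time in culture cannot be told apart. In the haploid 95 to 124 of the 137 cytosolic ribosomal protein genes were lower at 1 to 5 h than at 0 h, with medians between -2.15 and -4.46. Of the 52 mitochondrial ribosomal protein genes, MRPL4 was higher at 1 and 4 h, MRPL3 and MRPL16 at 3 h and MRPS16 at 5 h, and MRPS9 was lower at 2 h. No other was called. At 1, 2, 3, 4 and 5 h 23.8%, 26.8%, 25.7%, 24.0% and 22.5% of all 6173 genes were called higher and 7.73%, 8.12%, 5.07%, 4.58% and 3.86% lower. The median differences of the 52 genes at 1, 2, 3, 4 and 5 h were 0.54, 0.19, 0.84, 0.76 and 0.57, and those of all genes 0.63, 0.73, 0.71, 0.67 and 0.62.

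In the diploid-labelled strain the medians of the 52 genes were 0.29, 0.16, 0.34, 0.32 and 0.02, and those of all genes 0.45, 0.70, 0.72, 0.63 and 0.53. MRPL17 was higher at 1 h and MRPS5 lower at 5 h, and limma called none at 2, 3 and 4 h (2, 1 and 4 at an unadjusted p under 0.05). Of all genes 18.8%, 25.1%, 24.5%, 22.3% and 19.7% were higher and 7.52%, 7.31%, 5.09%, 4.6% and 4.07% lower at 1, 2, 3, 4 and 5 h. At 5 h cytosolic ribosomal protein genes were lower in 98 of 137 cases. The sign of the medians was not settled. After centring each library on its median gene the haploid medians at 1 and 5 h were -0.07 and -0.18 and the diploid-labelled median at 5 h was -0.67. The all-gene median was then 0.02, -0.14 and -0.16 in these 3 comparisons, and the split of all genes in the haploid at 1 h was 814 higher and 727 lower in place of 1472 and 477.

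Few members moved alone. MRPL4 was at 5.37 and 5.31 at 0 h in the haploid and at 6.70 and 6.54 after 1 h (difference 1.28, SE 0.46, limma adjusted p = 0.045), and at 5 h its libraries were at 4.94 and 6.06, on both sides of the starting level. MRPS16, the counterpart of bacterial S16, was at 4.91 and 5.50 at 0 h and at 7.42 and 6.98 at 5 h (difference 2.00, SE 0.66, limma adjusted p = 0.037). MRP7 was at 6.13 and 5.56 and after 1 h at 7.19 and 6.94, with no overlap but a limma adjusted p of 0.056. MRPS5 was at 4.91 and 4.99 in the diploid-labelled strain at 0 h and listed at 0 in both libraries at 5 h. The haploid count was 2 at 1 h without either 0 h library and 3 at 5 h without 0 h replicate 2, and the diploid-labelled count at 5 h was 5 without 5 h replicate 2 and 0 without 0 h replicate 2. Respiratory genes were higher at 5 h in 23 and 22 of 34 cases (medians 1.43 and 1.33).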

How the data were processed

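The deposited table holds log2(TPM + 1) values, which the authors made by aligning reads to the yeast transcriptome with STAR 2.5.3a, quantifying with RSEM 1.3.0, adding 1 to TPM and taking log2 (versions and the sacCer3 build from the submitters' processing notes). Values were turned back to TPM, rescaled to 1000000 over the 6675 nuclear open reading frames outside the rDNA and logged again with a pseudocount of 1, since rDNA open reading frames took up to 87.5% of nuclear TPM in some libraries. Genes with a mean of at least 1 in an experiment were kept. All groups of an experiment entered 1 limma 3.58.1 fit (R 4.3.3, trended variance, Benjamini-Hochberg adjustment, threshold 0.05). The Bcy1 fit had the series code in the titles as a covariate. Single-library experiments have differences and no test. Fits were tested on simulated data. The 52 genes and all gene lists were chosen with earlier results of these data known. Genes named are the 12 shown with sequences, those with the 4 largest called, non-overlapping changes in each direction and comparison, those at the ends of the abundance range or overlapping another gene, PUF3, HAP4 and SFP1, and up to 2 per further list; in single-library experiments the 3 largest differences each way. MRPL17, MRPL3 and other genes named in shared counts, and BCY1, were named after their values were seen. Rapamycin was 5 nM by the labels and 2.5 nM for diploids by the methods. Sequences were read from the RefSeq reference. Tables and figures were made with Python 3.11.15, pandas 2.3.3, numpy 2.4.6 and matplotlib 3.10.9. Alternatives were other scalings, pseudocounts, filters, variance models, blocks and samples.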

Additional observations from a re-analysis of the deposited data

Results flagged for a closer look

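The change from 2 h to 9 h differed between cdc28-13 and WT, by a test of the difference itself, for 1 of the 52 genes. This was MRPS17, with a difference of differences of 2.10 (SE 0.42, limma adjusted p = 0.00088), where 10.2% of all genes were called higher and 11.6% lower. In the Bcy1 experiment its difference between cdc28-13 and WT at 6 h was -0.79. The change from 2 h to 10 h of growth differed between the diploid-labelled strain and the haploid for 1 gene, MRPL20 (-5.77, SE 1.55), where 6.26% of all genes were called lower and a haploid library at 2 h was listed at 0. The effect of AID-BCY1 at 6 h differed from that in WT for 5 genes in cdc28-13 and for 8 genes in cdc20-1, all less negative than in WT, with MRPL49 and MRPS8 (1.03, SE 0.31 and 1.23) among both.

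The 21S rRNA of the mitochondrial ribosome, encoded by mitochondrial DNA and outside the comparisons, was listed above its controls. Per 1000000 of nuclear mRNA, the lowest cdc28-13 library was at 21935.9 at 8 h and at 21192.8 at 9 h, where WT libraries ran from 6247 to 6957. Much of that gap is in the rescaling, whose factor ran from 64.6 to 70.2 in cdc28-13 and from 30.5 to 32.8 in WT at these times. On the deposited log2(TPM + 1) scale 21S rRNA was at 8.34 to 8.75 in cdc28-13 and at 7.61 to 7.84 in WT. The lowest library at 24 h of growth was at 50806.4 in the haploid and at 55675.7 in the diploid-labelled strain, where the libraries at 2 h ran from 3903 to 5359, and the deposited log2 values were 10.70 to 11.16 at 24 h and 7.55 to 8.01 at 2 h. These values come from libraries labelled total RNA, and whether the RNA or its capture differed was not tested.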

How the results depend on the processing

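Of 282 recomputed counts of the 52 genes called, 220 were within 1.5 times the reported count and 62 were not. Named genes that had been called kept their call in 1720 of 2004 recomputations, lost it in 283 and reversed in 1, MRPL28 in cdc28-13 at 8 h (-0.0393 on the deposited values). The comparisons of AID-BCY1 strains with their parents are called Bcy1 depletion below for short, though the degron, osTIR and loss of Bcy1 cannot be told apart. Their counts at 4 h, recomputed by alternatives chosen after seeing the data, were 51 to 52 in WT, 45 to 52 in cdc28-13, 26 to 37 in cdc20-1 and 45 to 50 in cdc15-2 over settings that kept all libraries.

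With rDNA open reading frames kept in the total, the counts were 33 and 23 for cdc28-13 at 8 and 9 h, 1 for the haploid at 24 h, 0 and 0 for rapamycin in the haploid at 1 and 5 h and 2 in the diploid-labelled strain at 5 h. On the deposited values they were 33 and 28 for cdc28-13 at 8 and 9 h, 1 for the haploid at 24 h, 13 and 7 for the diploid-labelled strain at 10 and 24 h, 2 for rapamycin in the haploid at 1 h, 0 in the diploid-labelled strain at 5 h and 4 for cdc15-2 against WT. Centring gave 0 for rapamycin in the haploid at 1 h, 3 in the diploid-labelled strain at 5 h and 26 for cdc15-2 against WT. A pseudocount of 0.1 gave 3 for cdc28-13 at 9 h, a filter at 3 gave 2 for rapamycin in the haploid at 1 h, and no trend gave 1 for the haploid at 24 h. Fits to the compared groups alone, which have fewer samples, gave 7 and 3 for cdc28-13 at 8 and 9 h, 6 and 0 for the haploid at 10 and 24 h, 9 and 1 for the diploid-labelled strain, 0 for rapamycin in the haploid at 1 h, 5 and 0 for cdc20-1 and cdc15-2 against WT, and 21, 11 and 3 for Bcy1 depletion at 6 h in WT, cdc28-13 and cdc20-1. Apart from fits with fewer samples, the cause of these moves was not tested. The numbers of all genes called are not given beside the recomputed counts of this section. A move in a count therefore cannot be read as particular to the mitochondrial ribosomal protein genes. With rDNA open reading frames kept in the total, more of all genes were also called lower in cdc28-13 at 8 and 9 h.

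Leaving out each library in turn gave ranges of 0 to 0, 7 to 14 and 3 to 6 for cdc28-13 at 2, 8 and 9 h, 3 to 8 and 1 to 5 for the haploid at 10 and 24 h, 5 to 12 and 2 to 5 for the diploid-labelled strain, 1 to 2 and 1 to 3 for rapamycin in the haploid at 1 and 5 h, and 0 to 5 in the diploid-labelled strain. In the Bcy1 experiment they were 26 to 45, 18 to 29 and 1 to 12 for cdc28-13, cdc20-1 and cdc15-2 against WT, and for Bcy1 depletion in WT, cdc28-13, cdc20-1 and cdc15-2 they were 44 to 52, 44 to 48, 23 to 27 and 44 to 47 at 4 h and 33 to 43, 6 to 33, 5 to 11 and 45 to 51 at 6 h. A lone library left in a group was assumed to vary like the others.

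Replicate numbers did not pair the samples in the cdc28-13, growth and rapamycin experiments, where same-numbered samples correlated by at most 0.05, and a replicate block gave 11 and 4 for cdc28-13 at 8 and 9 h and 10 for the haploid at 10 h. Without the series as a replicate block in the Bcy1 experiment the counts were 39, 28 and 6 for the arrests and 43, 19, 10 and 50 for Bcy1 depletion at 6 h. Genes listed at 0 and an unknown depth limit single values in the cdc28-13, growth and rapamycin experiments.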
